A study of Mus musculus with 6 samples.

Results

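The genes described here are the odorant receptors of mouse chromosome 17 numbered Olfr90 to Olfr137, the cluster linked to the major histocompatibility complex (MHC). Rows of the count table were taken where the symbol was Olfr followed only by a number within that range, which gave 44 of 53686 rows. Of its 48 numbers, 4 have no such row; 3 of these, Olfr104, Olfr105 and Olfr106, are listed only with the suffix -ps, which the rule leaves out, although GENCODE M21 annotates those rows as protein coding. All 44 genes lie at chr17:37083871-38336643 of GRCm38, a span of 1252.773 kb, with 22 genes on each strand.

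Poly-A RNA of dissected olfactory epithelium was compared between wild-type mice (3 libraries) and mice hemizygous for 5x21-OR1A1 (3 libraries), all of the C57BL/6J strain. The series title describes 5x21-OR1A1 as a highly represented odorant receptor transgene, and OR1A1 is the name of a human class II odorant receptor. The sources used here do not give the insertion site, the promoter, or the ages and sexes of the mice. Replicates are numbered within each group but no animal is named, so p-values refer to the spread among libraries, which may in part be technical.

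Odorant receptors are G protein-coupled receptors of olfactory sensory neurons. A mature neuron expresses 1 allele of 1 receptor gene, so in whole epithelium the RNA level of a receptor depends both on how many neurons chose it and on how much RNA each of them holds. Those quantities cannot be told apart in bulk RNA. Mammalian receptors fall into class I, which in the mouse sit in a single cluster on chromosome 7, and class II, which make up most of the family and are spread over many chromosomes. The MHC-linked receptors are class II genes that lie beside the class I-like H2-M genes at the distal end of the MHC, and this linkage of receptor and MHC genes is also found in human.

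Many of the 44 genes have close relatives in the same cluster, and their sequences bear on how far single genes can be told apart. Grouping by at least 80% identity of the coding sequence (GENCODE M21, 915 to 1158 bases per gene) gave 19 subfamilies, of which 11 held a single gene. The median identity to the closest other receptor was 92.7%, and 18 genes had another receptor at 95% or more. In the 3 closest pairs the differences are unevenly spaced. Olfr110 and Olfr111 differ at 18 of 951 coding bases and share an identical run of 416 bases, longer than the 100-base reads. The longest identical run is 136 bases in Olfr101 and Olfr102 (31 differences in 924 bases) and 125 bases in Olfr117 and Olfr130 (27 differences in 951 bases). Windows of 90 coding bases in which each pair does differ are shown here. Among reads within the coding sequence, only those that cover such differences can be assigned to 1 gene of a pair. Capitals mark the bases that differ within a pair, each sequence is written 5′ to 3′ on the strand of its gene, and all of it is coding exon of GENCODE M21 on GRCm38.
Olfr110, chr17:37499439-37499528, plus strand: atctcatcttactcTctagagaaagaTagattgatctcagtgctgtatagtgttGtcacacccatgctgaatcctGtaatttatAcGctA
Olfr111, chr17:37530765-37530854, plus strand: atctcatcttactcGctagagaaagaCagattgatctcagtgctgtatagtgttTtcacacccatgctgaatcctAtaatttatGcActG
Olfr101, chr17:37300124-37300213, minus strand: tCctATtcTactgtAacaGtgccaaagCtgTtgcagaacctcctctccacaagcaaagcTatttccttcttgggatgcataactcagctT
Olfr102, chr17:37314086-37314175, minus strand: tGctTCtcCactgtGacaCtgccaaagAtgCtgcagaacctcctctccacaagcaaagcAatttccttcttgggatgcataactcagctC
Olfr117, chr17:37659531-37659620, minus strand: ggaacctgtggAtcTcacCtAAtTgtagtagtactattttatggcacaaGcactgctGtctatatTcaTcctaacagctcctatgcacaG
Olfr130, chr17:38067884-38067973, plus strand: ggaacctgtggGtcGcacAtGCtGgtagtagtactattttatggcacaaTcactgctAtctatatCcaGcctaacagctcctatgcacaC
The windows hold 7, 10 and 11 differences in the order of the pairs. Over the whole spliced transcripts, which include long untranslated exons, 26 of the 44 genes share at least 1 window of 100 bases with another receptor gene, up to 22.8% of the windows in Olfr110 and 14.8% in Olfr111. Olfr99 shares none, Olfr107 0.137% and Olfr102 2.71%. Reads within shared windows may have been lost or misplaced in the deposited counts.

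Library totals ran from 27506217 to 35804712 counts. The tissue label was checked against 14 markers of mature olfactory sensory neurons: all 14 were detected, and they took 2.34% ± 0.327 (SD, n = 3) of counts in wild-type and 1.43% ± 0.0679 (SD, n = 3) in 5x21-OR1A1 libraries, with no overlap of the groups. Of these 14 markers, 6 were lower at the threshold used throughout, an adjusted p under 0.05 in edgeR's quasi-likelihood test over 19267 genes, and the median log2 fold change of the list was -0.68. Omp, the olfactory marker protein of mature neurons, fell by 0.76 on the log2 scale (SE 0.14, edgeR adjusted p = 0.0305). Among 8 neuronal progenitor markers 6 rose, and the list summed to 144 to 172 CPM in wild-type and 255 to 294 CPM in 5x21-OR1A1 libraries, where CPM is counts per 1000000 of the scaled library total. Among 8 immature neuron markers 4 rose, including the growth cone protein Gap43, and that list summed to 1400 to 1660 against 1800 to 1990 CPM. The part of these marker shifts in the receptor values below was not tested.

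Of the 44 MHC-linked receptors, 37 had enough counts to be tested, and 3 of them were lower in 5x21-OR1A1 libraries: Olfr99, Olfr102 and Olfr107. None was higher (edgeR, adjusted p under 0.05; 3 of 37 were higher at an unadjusted p under 0.05, and DESeq2 and limma-voom also gave 0 higher, against 1.51% and 0.545% of all genes they tested). Called genes were 8.11% of the tested members in the lower direction, beside 2.20% of all tested genes in the lower and 0.519% in the higher direction. Before adjustment, 9 members were lower and 3 higher at p under 0.05, against 9.61% and 7.48% of all genes. The median log2 fold change (5x21-OR1A1 over wild-type) of the 37 was -0.33, with 24 below 0 and 13 above, against 0.02 over all tested genes.

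The other class II receptors had a lower median than the MHC-linked genes. It was -0.66 on the log2 scale over 737 tested genes, of which 167 (22.7%) were lower and 17 higher, and 12 of the 37 MHC-linked genes lay below that median. At an unadjusted p under 0.05 in edgeR, 48.2% of the 737 were lower and 10% higher, against 24.3% and 8.11% of the 37. The class I receptors had a median of -1.71, with 75 of 105 tested genes lower. The position of the MHC-linked genes between these sets and 0 is a description, since no test between the sets was made.

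**Figure D1:**
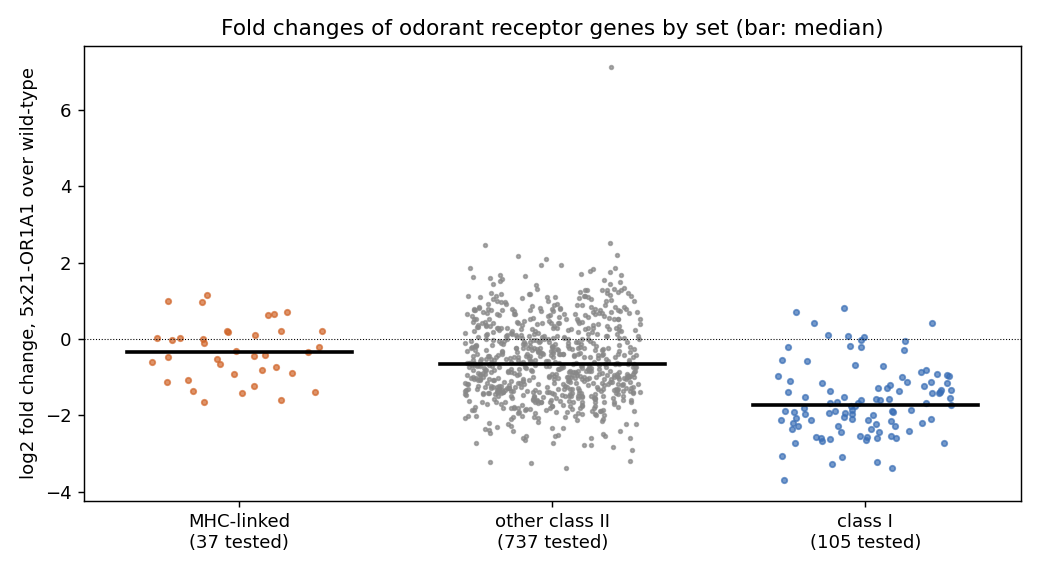
Log2 fold change (5x21-OR1A1 over wild-type, y axis) of each tested receptor gene as a point, in 3 sets along the x axis: 37 MHC-linked genes, 737 other class II genes and 105 class I genes, with a bar at each median (-0.33, -0.66 and -1.71). The MHC-linked points lie between -1.64 and 1.16, and the single point far above the rest among the other class II genes is Olfr151 at 7.14.

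Olfr99 had the largest difference of the called genes and was the fourth most abundant member per kb of exon in wild-type tissue. It measured 4.0, 6.04 and 5.91 CPM in wild-type libraries 1 to 3 and 2.31, 1.41 and 1.36 CPM in 5x21-OR1A1 libraries 1 to 3. Every wild-type library was above every 5x21-OR1A1 library. The means were 5.32 ± 1.14 and 1.69 ± 0.538 CPM (SD, n = 3 each), a log2 fold change of -1.64 (SE 0.27, edgeR adjusted p = 0.0209). Per kb of exon, Olfr99 moved from rank 4 to rank 11 among the 44 genes.

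Olfr107, of the same subfamily as Olfr99, measured 3.81, 5.90 and 4.84 CPM in wild-type and 1.69, 2.06 and 2.47 CPM in 5x21-OR1A1 libraries. Again the groups did not overlap, and the lowest wild-type library stood above the highest 5x21-OR1A1 library. Its log2 fold change was -1.23 (SE 0.23, edgeR adjusted p = 0.0325). Olfr102 measured 2.48, 3.65 and 2.25 CPM in wild-type against 1.20, 1.23 and 0.810 CPM in 5x21-OR1A1 libraries. All 3 wild-type values were higher here too, with a log2 fold change of -1.36 (SE 0.28, edgeR adjusted p = 0.0451).

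None of these 3 calls held in every fit that left out 1 library, and such fits have fewer libraries to test with. Olfr99 passed without wild-type replicate 1 (edgeR adjusted p = 0.0201) and without 5x21-OR1A1 replicate 1 (0.0295), and its adjusted p lay between 0.0571 and 0.107 without each of the others. Olfr107 passed only without wild-type replicate 1 (0.0249) and otherwise lay between 0.0732 and 0.140, and Olfr102 passed in none of the 6 (0.0555 to 0.182). Olfr102 also missed the threshold with library totals in place of TMM scaling (edgeR adjusted p = 0.0537) and with limma-voom (0.0528). All 3 stayed below 0 each time, from -1.94 to -1.06. The number of lower members was 6 without wild-type replicate 1 (against 2.41% of all tested genes), 1 without 5x21-OR1A1 replicate 1 (0.693%) and 0 without any other library (1.33% and 1.86% without wild-type replicates 2 and 3, 0.769% and 0.692% without 5x21-OR1A1 replicates 2 and 3). DESeq2 called 7 members lower, against 4.53% of all genes, and added Olfr95, Olfr96, Olfr101 and Olfr117. With limma-voom 2 members, Olfr99 and Olfr107, were lower, against 2.07% of all genes, and with no expression filter 5 were, against 1.82%.

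**Figure D2:**
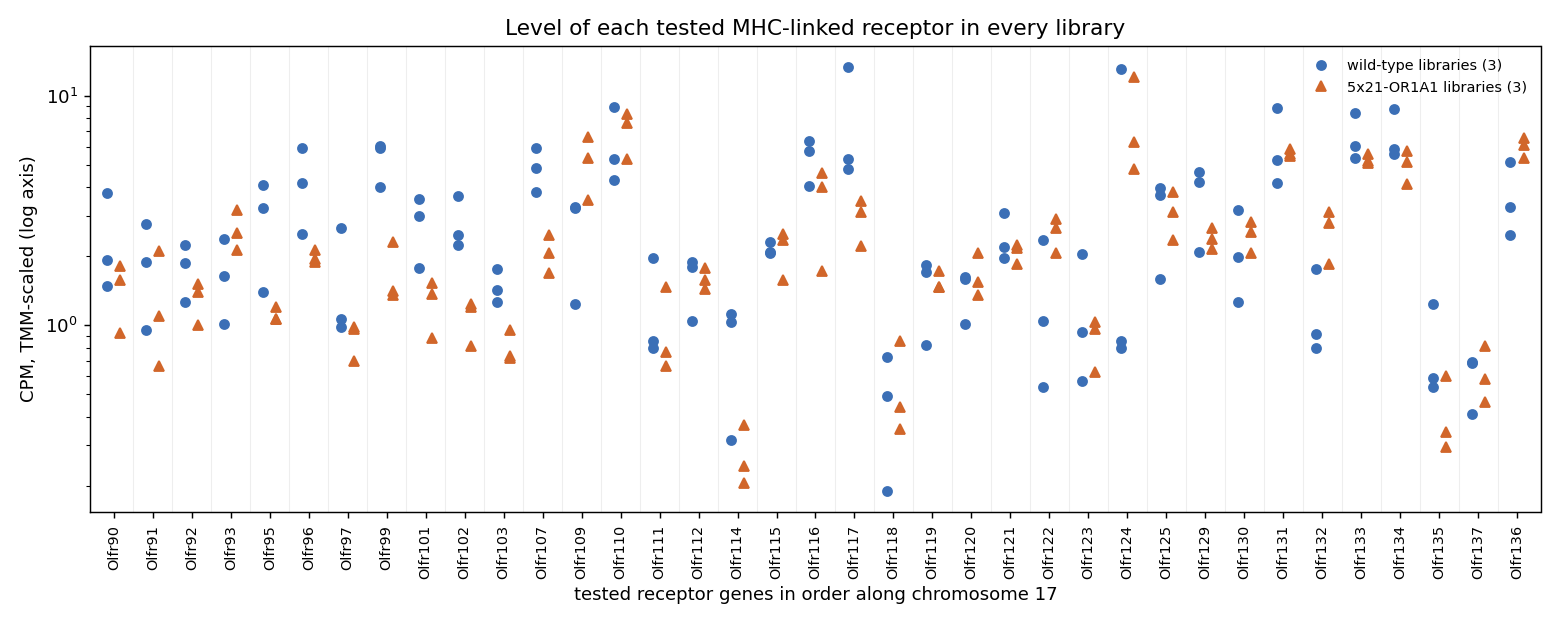
Level in CPM (log y axis) of the 37 tested members, in chromosome order along the x axis, with 1 symbol per library (circles for the 3 wild-type, triangles for the 3 5x21-OR1A1 libraries). From Olfr95 to Olfr107 all triangles lie below all circles, while for Olfr124 the wild-type circles spread from 0.793 to 13.1 CPM.

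The called genes lie in 1 stretch of the cluster. Between Olfr94 and Olfr107 (chr17:37196425-37407477, 211.1 kb) there are 10 members, 8 of them tested, and in all 8 every 5x21-OR1A1 library was below every wild-type library. Such a separation was seen in 9 of the 37 tested members, against 12.5% of all tested genes, and the ninth member is Olfr117. It was seen in 44.1% of the other class II receptors tested and in 85.7% of the class I receptors tested. Fold changes of the 8 ran from -1.64 to -0.82 on the log2 scale with a median of -1.18; without wild-type replicate 3 the upper end was -0.22, that of Olfr97. The other 29 tested members had a median of -0.01, with 16 below 0. This stretch was picked out after its values were seen, so no test of it is given. It also holds tested receptor rows outside the set, and these did not all fall. Olfr104-ps (-1.77) and Olfr106-ps (-2.65) were lower with no overlap, while Olfr105-ps (0.05) and Olfr758-ps1 (0.63) lay above 0 with overlap. The untested members, also with overlap, were Olfr94 (1, 1 and 6 counts in wild-type, 16, 9 and 4 in 5x21-OR1A1 libraries) and Olfr98 (4, 4 and 5 against 7, 1 and 3).

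Within the stretch, Olfr95 measured 1.40, 3.24 and 4.08 CPM in wild-type and 1.06, 1.20 and 1.07 CPM in 5x21-OR1A1 libraries (log2 fold change -1.38, SE 0.38). Its neighbour Olfr96 measured 2.51, 4.17 and 5.91 against 1.88, 2.12 and 1.95 CPM (-1.08, SE 0.30). In both genes the wild-type libraries differed widely while the 5x21-OR1A1 libraries stood close together. Olfr101 measured 1.78, 3.54 and 3.01 against 1.52, 1.37 and 0.883 CPM (-1.13, SE 0.32), and Olfr103, a relative of Olfr101 and Olfr102, measured 1.27, 1.43 and 1.76 against 0.953, 0.720 and 0.736 CPM (-0.88, SE 0.25). Olfr97 measured 0.984, 1.07 and 2.66 against 0.980, 0.960 and 0.699 CPM (-0.82, SE 0.42), so that its groups were separated by a narrow gap and wild-type library 3 stood apart. The edgeR adjusted p of these 5 genes lay between 0.114 and 0.370.

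Summed over the stretch, the members measured 18.4, 29.2 and 30.8 CPM in wild-type and 12.2, 11.4 and 10.23 CPM in 5x21-OR1A1 libraries. The genes do not form 1 sequence family: Olfr95 and Olfr96 are each alone in their subfamily, Olfr101, Olfr102 and Olfr103 form another, and Olfr97, Olfr98, Olfr99, Olfr107 and Olfr108 a further one. The 8 genes, picked after their values were seen, stayed below 0 in each of the 16 other settings, which refit the same libraries. Their median was then -0.45 with counts scaled to the mature neuron markers, -0.48 with counts scaled to the other class II receptors, and between -1.38 and -1.07 with 1 library left out.

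**Figure D3:**
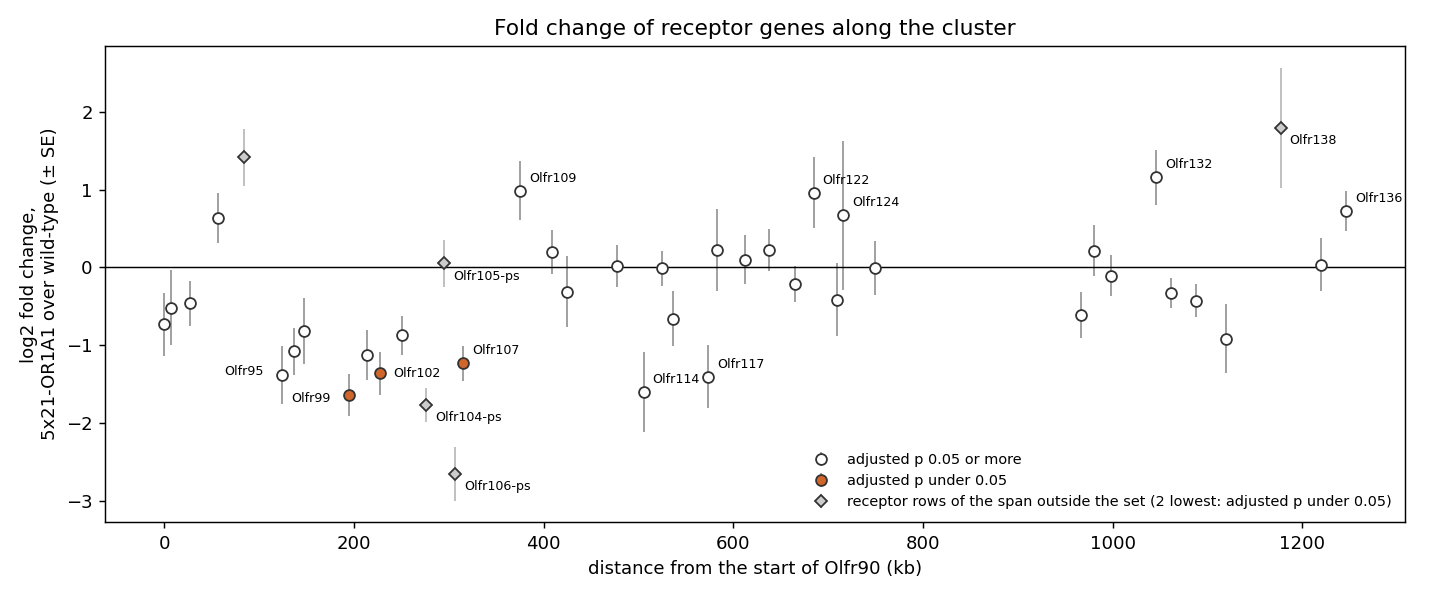
Log2 fold change (5x21-OR1A1 over wild-type, ± SE, y axis) against distance from the start of Olfr90 in kb (x axis). Orange circles are members with an adjusted p under 0.05, and open circles other tested members. Grey diamonds are receptor rows of the span that are not members: Olfr104-ps, Olfr105-ps, Olfr106-ps, Olfr138 and Olfr753-ps1. The tested row Olfr758-ps1, at 0.63, is not drawn. The 8 members from Olfr95 to Olfr107 lie between -1.64 and -0.82, and the members after them fall on both sides of 0.

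Beyond the stretch, the set was mixed. Olfr90 to Olfr93, at the start of the span, had log2 fold changes from -0.73 to 0.64. From Olfr108 to Olfr112 the median was 0.11, from Olfr113 to Olfr117 it was -1.03 (4 of 4 tested genes below 0), from Olfr118 to Olfr128 it was 0.16 and from Olfr129 to Olfr136 it was -0.11. Olfr117, among the 4 members with the lowest fold changes, measured 4.79, 5.30 and 13.3 CPM in wild-type and 3.10, 3.46 and 2.21 CPM in 5x21-OR1A1 libraries. All wild-type values were above all 5x21-OR1A1 values, but wild-type library 3 was far above the other two, and the log2 fold change of -1.41 (SE 0.40, edgeR adjusted p = 0.130) missed the threshold. Without that library the log2 fold change was -0.78 (edgeR adjusted p = 0.160). Olfr114, at 0.317, 1.12 and 1.04 against 0.245, 0.206 and 0.368 CPM, had a log2 fold change of -1.60 (SE 0.52, edgeR adjusted p = 0.170) with overlapping groups.

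The 4 members with the highest fold changes were Olfr132, Olfr109, Olfr122 and Olfr136, and none passed the threshold. Olfr132 measured 0.920, 0.796 and 1.76 CPM in wild-type and 1.85, 2.78 and 3.13 CPM in 5x21-OR1A1 libraries, with no overlap (log2 fold change 1.16, SE 0.35, edgeR adjusted p = 0.149). Olfr109 measured 1.24, 3.27 and 3.25 against 3.51, 6.58 and 5.34 CPM (0.99, SE 0.38, edgeR adjusted p = 0.240), and Olfr136 measured 2.48, 3.27 and 5.15 against 5.34, 6.55 and 6.07 CPM (0.72, SE 0.26, edgeR adjusted p = 0.210). In both, the highest wild-type library lay just under the lowest 5x21-OR1A1 library. These are the 3 members with all 5x21-OR1A1 libraries above all wild-type libraries, against 11.4% of all tested genes. Among the other class II receptors tested, 9.5% were separated in this way. Olfr122 measured 0.539, 1.04 and 2.35 against 2.07, 2.91 and 2.65 CPM, with overlap (0.96, SE 0.46, edgeR adjusted p = 0.341). Without wild-type replicate 3, Olfr136 passed (1.05, edgeR adjusted p = 0.05 after rounding), and so did Olfr124, against 0.399% of all tested genes that were then higher.

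Olfr124 varied more between wild-type libraries than any other tested member. It measured 0.793, 0.851 and 13.1 CPM there, a range of 16.5-fold, and 6.26, 12.1 and 4.78 CPM in 5x21-OR1A1 libraries. The 5x21-OR1A1 libraries lay between the low and the high wild-type values. With all libraries the log2 fold change was 0.67 (SE 0.96, edgeR adjusted p = 0.781), and without wild-type replicate 3 it was 3.22 (adjusted p = 0.0196). More widely, none of the 37 tested members was highest in wild-type library 1, 13 were highest in library 2 among the wild-type libraries and 24 in library 3. The highest wild-type library exceeded the lowest by more than 2-fold in 23 members, and in 6 members among the 5x21-OR1A1 libraries. The median of that ratio was 2.21 in wild-type and 1.52 in 5x21-OR1A1 libraries.

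Levels per kb of exon were compared between genes, since the exons of the members add up to 1038 to 5988 bases. The most abundant in wild-type libraries was Olfr134 at 4.03 ± 1.04 CPM per kb, followed by Olfr110 at 3.52 ± 1.38, Olfr131 at 3.36 ± 1.35 and Olfr99 at 2.99 ± 0.642 (SD, n = 3 each). Olfr117 (2.22 ± 1.36), Olfr133 (2.11 ± 0.515), Olfr96 (1.94 ± 0.788) and Olfr121 (1.62 ± 0.392) came next. Neighbours in this order differed by less than the SD of either gene, except that Olfr99 and Olfr117 differed by more than the SD of Olfr99. In 5x21-OR1A1 libraries Olfr110 was first at 4.04 ± 0.898 CPM per kb. The wild-type place of Olfr117 rests on wild-type library 3, which held 13.3 CPM of it against 4.79 and 5.30 CPM in the others.

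Apart from Olfr99, none of these 8 abundant genes passed the test. Olfr134 measured 5.84, 8.72 and 5.60 CPM in wild-type and 5.72, 4.11 and 5.15 CPM in 5x21-OR1A1 libraries (log2 fold change -0.43, SE 0.21). Olfr133, its relative at 95.3% coding identity, measured 6.03, 8.42 and 5.36 against 5.07, 5.18 and 5.56 CPM (-0.33, SE 0.19). In both genes wild-type library 2 was the high one, unlike in most members. Olfr131 measured 4.16, 5.24 and 8.81 against 5.58, 5.45 and 5.85 CPM (-0.11, SE 0.26), and Olfr121 measured 1.97, 2.19 and 3.08 against 1.85, 2.23 and 2.17 CPM (-0.21, SE 0.23). Their groups overlapped, and their edgeR adjusted p ran from 0.359 to 0.878 for these 4 genes. Relative to the mature neuron markers or the other class II receptors, the fold changes of all 4 were above 0. They lay below the median of all tested genes, which these scalings moved to 0.71 and 0.68.

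Values of the closest relatives were set side by side. Olfr110 measured 4.28, 5.32 and 8.88 CPM in wild-type and 5.31, 8.33 and 7.58 CPM in 5x21-OR1A1 libraries (log2 fold change 0.20, SE 0.29), while Olfr111, 98.11% identical in coding sequence, measured 0.857, 0.796 and 1.97 against 0.762, 1.47 and 0.662 CPM (-0.31, SE 0.46). Neither passed the test. Olfr110 was just below 0 without wild-type replicate 1, and Olfr111 was above 0 without wild-type replicate 3 and under scaling to the markers or to the other class II receptors. Olfr117 and Olfr130, 97.16% identical and separated by other subfamilies, stood at -1.41 (SE 0.40) and 0.21 (SE 0.33). Olfr130 measured 1.27, 1.98 and 3.18 against 2.81, 2.54 and 2.06 CPM, so its groups overlapped where those of Olfr117 did not. Olfr101 and Olfr102, 96.65% identical and neighbours in the stretch, stood at -1.13 and -1.36. Differences within pairs were not tested, and reads of shared windows limit how far they can be read.

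Among the other pairs at 95% identity or more, Olfr119 measured 0.825, 1.70 and 1.83 against 1.72, 1.47 and 1.47 CPM (log2 fold change 0.10, SE 0.31). Olfr118 and Olfr120 had fold changes of 0.22 (SE 0.53) and 0.22 (SE 0.28), and Olfr135 had -0.92 (SE 0.44). None of these 4 passed the test. Olfr115 and Olfr116 overlap each other on the minus strand (chr17:37608940-37627109 and chr17:37620577-37627199), so reads of their shared bases may count for either gene or for neither. Olfr115 measured 2.09, 2.06 and 2.32 against 1.58, 2.50 and 2.35 CPM, and Olfr116 measured 4.06, 6.37 and 5.74 against 1.72, 4.01 and 4.6 CPM (-0.66, SE 0.35, edgeR adjusted p = 0.387).

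The tested members not yet described by their values, Olfr90 to Olfr93, Olfr112, Olfr123, Olfr125, Olfr129 and Olfr137, had log2 fold changes from -0.73 (Olfr90) to 0.64 (Olfr93). Olfr90 measured 1.49, 1.92 and 3.77 CPM in wild-type and 0.926, 1.82 and 1.58 CPM in 5x21-OR1A1 libraries, and Olfr93 measured 1.01, 1.65 and 2.38 against 2.53, 3.19 and 2.13 CPM. Both had overlapping groups, and Olfr90 and Olfr93 lie within 77.6 kb at the start of the span. Olfr125 measured 1.59, 3.98 and 3.70 against 2.34, 3.81 and 3.13 CPM, with means of 3.09 CPM in both groups.

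The 7 untested members had few counts over all 6 libraries together: 46 for Olfr126, 42 for Olfr113, 37 for Olfr94, 29 for Olfr127, 24 for Olfr98, 14 for Olfr128 and 2 for Olfr108. Of these, Olfr126, Olfr127 and Olfr128 lie side by side and are each at least 95% identical to another of them, and Olfr98 and Olfr108 are relatives of Olfr99. No fold change is given for them at this depth.

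As a whole, the 44 genes held 2313, 4038 and 4206 counts in the wild-type libraries, against 3102, 3019 and 2441 counts in the 5x21-OR1A1 libraries. Per 1000000 of all counts this was 74.8, 112.8 and 139.4 against 87.6, 101.6 and 88.7, with overlap of the groups (109.0 ± 32.4 and 92.6 ± 7.76, SD, n = 3 each; log2 ratio -0.23). The other class II receptors together stood at 3165 ± 501 per 1000000 counts in wild-type and 1974 ± 147 in 5x21-OR1A1 libraries (SD, n = 3 each), with no overlap. That sum includes Olfr151, at a log2 fold change of 7.14, and no sum, share or scaling of class II was repeated without it. The MHC-linked genes took 2.71%, 2.97% and 4.28% of class II counts in wild-type and 3.97%, 4.87% and 4.64% in 5x21-OR1A1 libraries. Wild-type library 3 lay among the 5x21-OR1A1 libraries on this share, and the groups overlapped (log2 ratio 0.44). Per 1000 counts of the 14 mature neuron markers, the members stood at 3.64, 4.18 and 6.18 in the wild-type group, against 6.07, 6.81 and 6.54 in the 5x21-OR1A1 group (log2 ratio 0.47), again with overlap through wild-type library 3. With 3 libraries a group, a two-sided exact permutation test cannot go below p = 0.1, and none is given for these sums.

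**Figure D4:**
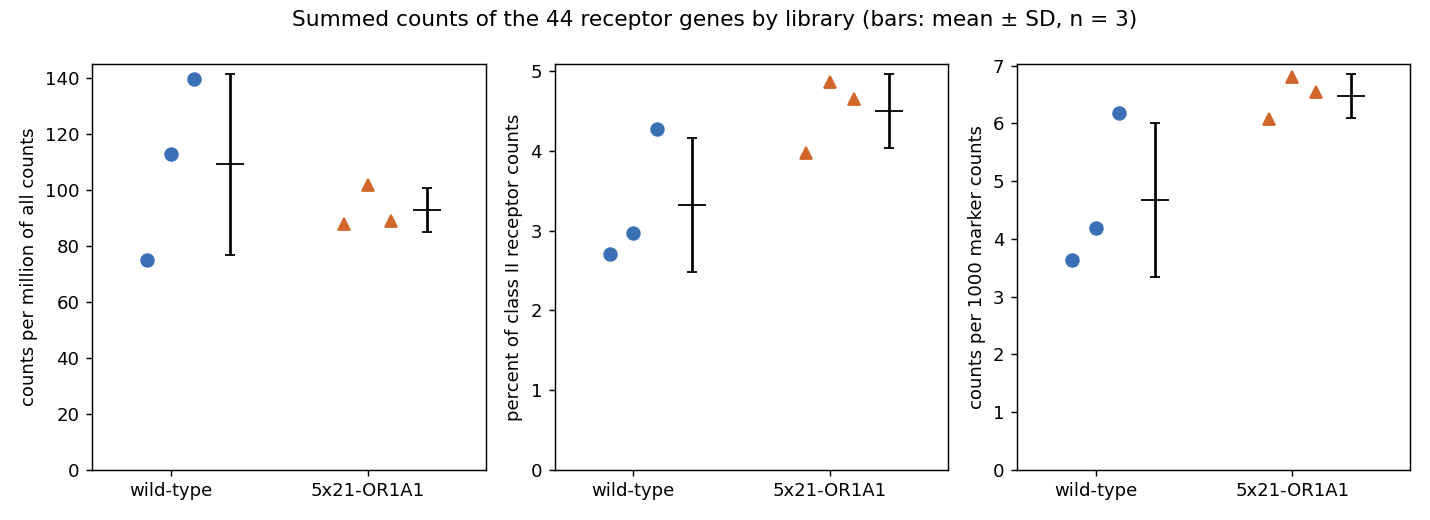
Summed counts of the 44 members in each library on 3 scales (y axes from 0: counts per 1000000 of all counts, percent of class II receptor counts, and per 1000 counts of mature neuron markers), with points for libraries of each group (x axis) and bars for mean ± SD (n = 3). The groups overlap on each scale; the mean is lower in 5x21-OR1A1 on the first scale (92.6 against 109.0) and higher on the other 2 (4.49% against 3.32%, and 6.47 against 4.67).

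The direction of the member median therefore depends on what the counts are set against. With counts scaled to the mature neuron markers the median log2 fold change was 0.37, and scaled to the other class II receptors it was 0.35. These scalings move the median of all tested genes to 0.71 and 0.68. Under them 12 and 10 members were higher (against 76.4% and 71.5% of all tested genes), and Olfr99 was the only lower member under each, at -0.91 (edgeR adjusted p = 0.0134) and -0.95 (0.0110), against 1.32% and 1.30% of all tested genes. Olfr102 stood at -0.65 and -0.68 (edgeR adjusted p = 0.0544 and 0.0537) and Olfr107 at -0.51 and -0.53 (0.0673 and 0.0792).

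Sequence upstream of the members was searched for motifs associated with odorant receptor genes: the Olf/Ebf motif, TCCC and GGGA separated by 2 bases of any kind, which early B-cell factors bind, the homeodomain cores TAATTA and TAATGA, and TATAAA. RefSeq windows of 300 bases (250 before to 50 after the start, GRCm38.p6) were matched by symbol for 35 of the 44 members, and both strands were read. In 32 of the 35 the RefSeq start lies within 100 bases of the start codon, and in 30 it lies over 1000 bases inside the GENCODE gene start, so most of these windows lie just before the coding exon and far from the start of the longest transcript. The Olf/Ebf motif occurred in 4 of 35 member windows (11.4%), in 1 of 806 windows of other class II receptors (0.124%) and in 0.904% of all 32851 windows. TAATTA occurred in 11.4% of member windows, 19.5% of the other class II windows and 5.29% of all windows, TAATGA in 25.7%, 29.0% and 9.78%, and TATAAA in 25.7%, 42.1% and 13.6%.

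The 4 members with the Olf/Ebf motif were Olfr96, Olfr98, Olfr99 and Olfr108. In the last 3, which belong to the same subfamily, the motif lies in nearly the same sequence outside annotated exons, shown here from the RefSeq windows with the motif in capitals, 5′ to 3′ on the strand of each gene.
Olfr98, chr17:37263811-37263870, minus strand: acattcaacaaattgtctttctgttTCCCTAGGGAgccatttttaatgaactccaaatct
Olfr99, chr17:37280572-37280631, minus strand: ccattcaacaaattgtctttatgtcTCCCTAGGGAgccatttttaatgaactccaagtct
Olfr108, chr17:37445347-37445406, plus strand: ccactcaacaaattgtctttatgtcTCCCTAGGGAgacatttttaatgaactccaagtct
Each of the 3 stretches also holds TAATGA, left in lower case. Over these 60 bases, Olfr99 and Olfr108 differ at 2 positions, Olfr98 and Olfr99 at 4 and Olfr98 and Olfr108 at 6. Their RNA levels were far apart: Olfr99 had 680 counts over the 6 libraries, Olfr98 had 24 and Olfr108 had 2. A match to these letters is a description of the sequence and says nothing of whether a factor binds there. The matches in the 3 stretches are copies of 1 sequence and not independent.

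Genes around the receptors were compared as well. Of 22 non-receptor genes annotated within the span 5 were tested, and none was called (0 in edgeR, DESeq2 and limma-voom, and 0 at an unadjusted p under 0.05 in edgeR). No count was found for 11 of the 22, and the tested Gm19807, Gm7335 and Gm18737 are annotated as processed pseudogenes. Since edgeR called only 2.20% of all tested genes lower and 0.519% higher, 0 of 5 says little about these genes. Of 23 listed MHC-region genes 18 were tested, with a median log2 fold change of 0.29 and none called by edgeR or limma-voom, 1 lower in DESeq2 (Gabbr1) and 2 lower at an unadjusted p under 0.05 in edgeR. Among 20 genes of receptor choice and silencing, 1 was lower and none higher in edgeR, with a median of -0.002 (6 lower and 3 higher at an unadjusted p under 0.05; 4 lower and 1 higher in DESeq2). The lower gene was Ebf4, of the early B-cell factor family whose members bind Olf/Ebf sites. Adcy3, Rtp1 and Rtp2 of the receptor choice and silencing list are also among the 14 mature neuron markers. All 14 markers were lower at an unadjusted p under 0.05 in edgeR. Markers of sustentacular cells (6 tested), Bowman gland (5), horizontal basal cells (4) and vomeronasal organ (4) gave 0 calls in edgeR and limma-voom. DESeq2 called 2 of them lower, both sustentacular, and at an unadjusted p under 0.05 edgeR had 2 lower and 2 higher. Of 5 immune markers 1 was higher, the immunoglobulin chain gene Jchain.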

How the data were processed

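The authors deposited raw counts, with no normalization, for 6 libraries of nonstranded poly-A RNA read as single-end reads of 100 bp. The submitters' processing notes name TopHat2 2.1.1, HTSeq 0.9.1 and the build GRCm38.p5. The annotation release, the strand setting and the handling of multiply matching reads were not given in the sources used here. Library totals were 27506217 to 35804712 counts. Counts were fitted in R 4.3.3 with edgeR 4.0.16 (totals scaled by TMM, default expression filter by group with minimum count 10 and minimum total 15, quasi-likelihood test of genotype) and p-values were adjusted by Benjamini-Hochberg over 19267 genes. Genes under an adjusted p of 0.05 were called. The standard error was the size of the log2 fold change over the square root of F. CPM refers to TMM-scaled totals. Coordinates, exon lengths and coding sequences came from GENCODE M21, and upstream windows from RefSeq. No protein sequences were used: near-identity, planned on proteins, was taken from coding sequences. Alternatives included DESeq2 1.42.0, limma-voom (limma 3.58.1), other scalings and filters, a replicate block and leaving out each library. The fits were tested on simulated data.

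Members and gene lists were chosen with earlier results of these data known. Genes are named by this rule: called members, the 8 most abundant per kb in wild-type, the 4 lowest and 4 highest fold changes, pairs at 95% identity or more, and untested members by total count. Olfr124, Olfr90, Olfr93, Olfr125, the overlapping pair Olfr115 and Olfr116, the stretch from Olfr95 to Olfr107 and the other members of its block were chosen after their values were seen. Other class II receptors were 941 Olfr genes outside class I, which was Olfr543 to Olfr693 with Olfr33 and Olfr78. Replicates differed by more than counting noise (chi-square per degree of freedom from 52.5 to 213.3), and all 6 libraries were kept.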

Additional observations from a re-analysis of the deposited data

How the results depend on the processing

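The count of 3 lower members was 7 with DESeq2, 5 with no filter, 1 with counts scaled to the mature neuron markers, 1 scaled to the other class II receptors, 1 with a replicate block and 0 at an adjusted p under 0.01, and 0 to 6 with 1 library left out. The count of 0 higher members was 12 and 10 under the scalings to markers and to class II, and 0 to 2 with 1 library left out (Olfr124 and Olfr136 without wild-type replicate 3). Under these scalings the median fold change of -0.33 became 0.37 and 0.35, and the summed log2 ratio of -0.23 became 0.47 and 0.45. They were between -0.51 and -0.003, and between -0.44 and -0.02, with 1 library left out. The sum was -0.27 without Olfr110, and -0.21 without the 18 near-identical members, an alternative chosen after seeing the data in place of protein identity, which was not run. Of 444 alternatives for 28 single genes, 372 kept direction and side of the threshold, 30 newly passed, 23 no longer passed and 19 changed sign. Scaled to markers and to class II these were Olfr111 (0.37 and 0.35), Olfr116 (0.066 and 0.060), Olfr121 (0.49 and 0.47), Olfr131 (0.61 and 0.59), Olfr133 (0.39 and 0.36) and Olfr134 (0.30 and 0.26). With 1 library left out they were Olfr110 (-0.0068 to 0.55), Olfr111 (-0.74 to 0.22), Olfr118 (-0.24 to 0.65), Olfr119 (-0.18 to 0.29), Olfr130 (-0.054 to 0.60) and Olfr131 (-0.32 to 0.26). The labels do not say whether the replicate numbers pair the libraries. Same-numbered libraries correlated at -0.33, 0.07 and -0.17 after the mean of each group was removed, which cannot decide this with 3 libraries a group. The replicate block kept the call of Olfr107 alone (edgeR adjusted p = 0.0492, with 0.0813 for Olfr99 and 0.0584 for Olfr102). The causes of these changes were not tested. The 7 untested members hold 2 to 46 counts each in all, which limits any comparison of them.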

Other observations

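Receptor rows of the span that lie outside the numbering rule include 3 rows with the suffix -ps between Olfr103 and Olfr107, named here after their values were seen. GENCODE M21 annotates all 3 as protein coding. Olfr106-ps measured 3.84, 4.72 and 3.84 CPM in wild-type and 0.327, 0.720 and 0.957 CPM in 5x21-OR1A1 libraries. It fell by 2.65 on the log2 scale (SE 0.35, edgeR adjusted p = 0.00867), with no overlap of the groups. Olfr104-ps measured 5.84, 5.65 and 4.39 against 1.25, 1.92 and 1.51 CPM, also with no overlap, and fell by 1.77 (SE 0.22, edgeR adjusted p = 0.00672). Olfr105-ps, which lies between them in number, measured 5.93, 5.27 and 2.83 against 3.62, 4.90 and 6.11 CPM, with overlap (0.05, SE 0.30, edgeR adjusted p = 0.955). Both called rows were also called by DESeq2 and limma-voom. Other tested receptor rows of the span lay above 0. Olfr753-ps1 measured 0.349, 0.165 and 0.311 CPM in wild-type and 0.735, 0.583 and 0.883 CPM in 5x21-OR1A1 libraries. Its groups did not overlap, and its log2 fold change was 1.42 (SE 0.368). Olfr758-ps1, also between Olfr103 and Olfr107, had a log2 fold change of 0.63 (SE 0.397) with overlapping groups. Neither Olfr753-ps1 nor Olfr758-ps1 passed the threshold in edgeR.

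Olfr138, next in number after the members, measured 0.508, 0.631 and 1.66 CPM in wild-type and 6.97, 1.61 and 0.920 CPM in 5x21-OR1A1 libraries, so that a single 5x21-OR1A1 library stood high (log2 fold change 1.80, SE 0.78, edgeR adjusted p = 0.291). Among the H2-M10 genes, MHC class I-like genes expressed in vomeronasal neurons, H2-M10.5 measured 11.3, 2.52 and 0.484 CPM in wild-type and 4.25, 6.58 and 15.1 CPM in 5x21-OR1A1 libraries (0.85, SE 0.88, edgeR adjusted p = 0.681). Its values spread widely within each group, and the groups overlapped.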
